A study of Mus musculus with 24 samples.

Results

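Expression of 9 genes that mark the endothelial cells of brain vessels was compared between Ts1Cje and 2N mouse brain. The genes were Cldn5, Slc2a1, Kdr, Flt1, Tek, Tie1, Eng, Pecam1 and Vwf, chosen by name out of 13674 genes named on the arrays because they are known in these cells. All probe sets that the platform annotation assigned to one of them were taken, and each was kept apart. They came to 14 of 24833 probe sets, 12 of 12422 on the MGU74A design (array A) and 2 of 12411 on the MGU74B design (array B). Every gene had at least 1 probe set on array A, and only Flt1 and Eng had one on array B. The 24 samples were 6 arrays of each design for 2N and 6 for Ts1Cje, all of total RNA from brain. The labels give neither brain region, age nor sex, and do not say whether samples came from separate animals, so any p-value covers only the spread among these arrays, part of which may be technical. As background, 2N is the normal chromosome complement, and Ts1Cje is a Down syndrome model with an extra copy of distal chromosome 16, moved onto chromosome 12, with Sod1 disrupted at its edge.

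Brain endothelial cells line the vessels and form the blood-brain barrier. Their tight junctions, of which claudin-5 is the main claudin, close the gap between cells, and the glucose transporter encoded by Slc2a1 carries glucose across them. Growth and upkeep of the vessels run through VEGF, which binds the receptors encoded by Kdr and Flt1, and through angiopoietins, which bind the receptor encoded by Tek, the partner of the orphan receptor encoded by Tie1. Transcription factors of the ETS family, which bind sites with the core GGAA, are known regulators of many endothelial genes. Of the ETS family, Erg and Ets2 lie in the chromosome segment that Ts1Cje carries in excess.

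None of the 9 member genes lies in that segment. Cldn5 is on chromosome 16, but on the centromeric side of Sod1, so it has the normal copy number in Ts1Cje. Tek, Tie1 and Slc2a1 are on chromosome 4 and Kdr and Flt1 on chromosome 5. RefSeq promoter sequences (GRCm38.p6) were at hand for 7 of the 9 genes. In the 250 bases before the start, GGAA or its reverse complement TTCC was found in 5 of these 7 promoters and in 93.5% of 32841 promoters of the same length, so a match by itself is common. The number of matches ran from 7 in Tie1, 4 in Kdr, 4 in Flt1, 3 in Eng and 2 in Tek to 0 in Cldn5 and 0 in Slc2a1, and the median over all promoters was 3. The hypoxia factor core ACGTG or its reverse complement CACGT was found in 1 of the 7, Slc2a1, and in 16.6% of all promoters. The promoters of Tie1, Flt1 and Cldn5 are shown because they span the range of match numbers and because Tie1 and Flt1 gave the most divergent values between probe sets. They are written 5′ to 3′ on the gene's strand, with GGAA and TTCC in capitals, for Tie1 at chr4:118489850-118490099 (minus strand), Flt1 at chr5:147726012-147726261 (minus strand) and Cldn5 at chr16:18776597-18776846 (plus strand).
Tie1: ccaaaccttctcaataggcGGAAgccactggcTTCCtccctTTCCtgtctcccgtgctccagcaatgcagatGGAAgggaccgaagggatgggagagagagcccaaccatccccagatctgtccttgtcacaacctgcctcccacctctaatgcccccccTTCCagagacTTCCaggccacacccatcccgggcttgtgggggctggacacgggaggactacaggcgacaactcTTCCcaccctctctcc
Flt1: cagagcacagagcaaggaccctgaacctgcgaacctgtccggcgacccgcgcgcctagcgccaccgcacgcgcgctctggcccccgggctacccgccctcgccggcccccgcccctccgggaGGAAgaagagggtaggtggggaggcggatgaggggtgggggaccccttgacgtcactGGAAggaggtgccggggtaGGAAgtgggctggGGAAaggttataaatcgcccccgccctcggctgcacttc
Cldn5: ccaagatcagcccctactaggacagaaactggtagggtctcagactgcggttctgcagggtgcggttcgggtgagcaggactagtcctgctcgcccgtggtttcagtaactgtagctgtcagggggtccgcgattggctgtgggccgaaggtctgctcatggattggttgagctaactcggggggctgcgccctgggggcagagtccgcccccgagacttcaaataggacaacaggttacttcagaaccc

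Each array gave a linear intensity for every probe set. Median intensity ran from 11.2 to 21.7 over the arrays of design A and from 7.9 to 13.8 over those of design B, so each table was quantile normalised. Intensities below are these normalised values, which have no physical unit, and log2 differences are Ts1Cje minus 2N. Each difference was tested with limma, with p adjusted by Benjamini-Hochberg over the table, and those with an adjusted p under 0.05 are said to pass. Markers of neurons were among the brightest probe sets (Tubb3 at the 99.8th percentile). The endothelial genes ranged from bright to dim. Cldn5 stood at the 91.8th percentile of its table, Eng at the 84.8th and Vwf at the 68.5th, and the other probe sets of array A at or below the 56.9th. Only those 3 lay above the median intensity of the tested probe sets of array A, which was 30.8, and neither probe set of array B lay above its table's median of 16.1.

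No endothelial gene passed the test in either direction. On array A 0 of the 11 member probe sets tested passed, where 0.0966% of all 9316 tested did. On array B 0 of 2 passed, where 0.0645% of 9308 did. The limma adjusted p was at least 0.990 for each. On array A 7 of the 11 log2 differences were above 0, where 48.9% of all tested probe sets were, and on array B 1 of 2 was, where 49.3% were. The array A median was 0.092, beside -0.00424 over all tested. At an unadjusted limma p under 0.05 there were 0 member probe sets on array A, where 3.63% of all tested reached that level, 1.91% higher and 1.72% lower in Ts1Cje. On array B there was 1, a Flt1 probe set that was lower in Ts1Cje, where 4.24% reached it, 2.14% higher and 2.11% lower. The genotypes overlapped in all 14 probe sets, while over all those tested 0.301% (array A) and 0.247% (array B) did not overlap. These are values of bulk brain RNA, in which fewer endothelial cells and less RNA per cell cannot be told apart.

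**Figure D1:**
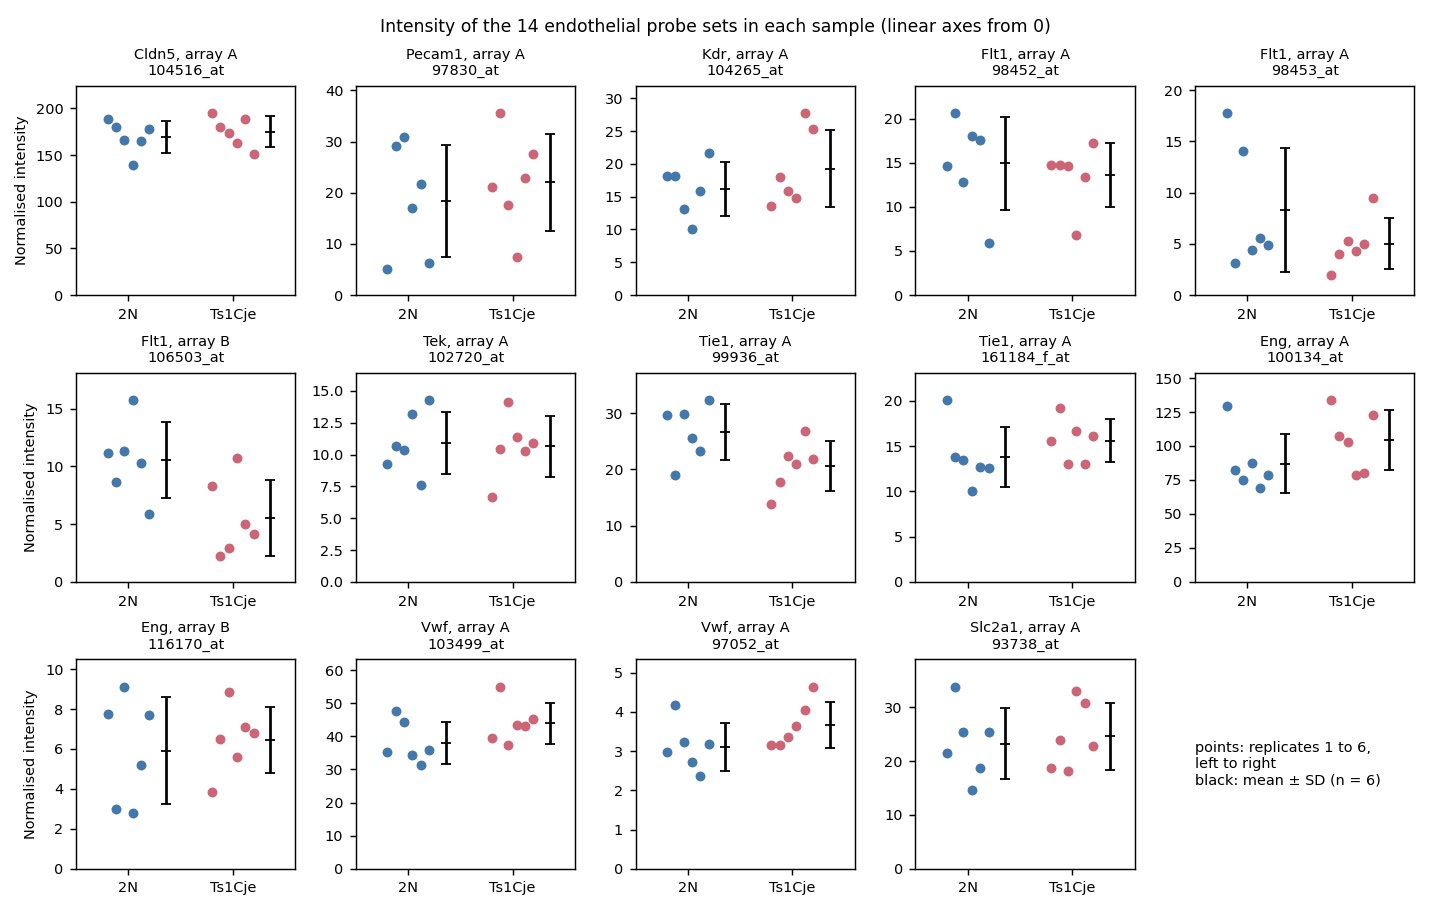
Normalised intensity of each endothelial probe set (vertical axes, linear from 0) in the 6 samples of 2N (blue) and the 6 of Ts1Cje (red), with the mean ± SD in black. The genotypes overlap in every panel. Cldn5 varies little between samples, whereas Pecam1 runs from 5.17 to 35.6.

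Cldn5, which encodes the main tight junction claudin of brain vessels, was the brightest and the most closely measured member. Its intensity in 2N ran from 140 through a median of 172 to 188, and in Ts1Cje from 151 through 177 to 195. The ranges overlapped widely, with 4 of 6 Ts1Cje samples above the 2N median and 2 above every 2N sample. The log2 difference was 0.047 (SE 0.088, 95% interval -0.14 to 0.23, limma adjusted p = 0.99), that is between 0.908-fold and 1.18-fold of the 2N level. Its sign turned to -0.021 without normalisation between arrays and to -0.00809 without 2N replicate 4, the lowest 2N sample. The interval does not reach 1.5-fold in either direction, the ratio that 3 gene copies to 2 would give.

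Slc2a1, the glucose transporter gene of the barrier, which astrocytes and red cells also use, was at 14.6, 23.4 and 33.8 in 2N (lowest, median and highest). In Ts1Cje it was at 18.1, 23.4 and 33.1. The medians of the genotypes were nearly equal, and the samples spread about as widely in each. The difference was 0.092 (SE 0.22, 95% interval -0.36 to 0.55, limma adjusted p = 0.997). The sign was negative without 2N replicate 4 (-0.033) or Ts1Cje replicate 4 (-0.00155). By replicates it was -0.35 between replicates 1 and 2 of each genotype and 0.31 between replicates 3 to 6.

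Kdr, the gene of the main signalling receptor for VEGF in endothelium, was at 10.1, 17.1 and 21.7 in 2N and at 13.7, 16.98 and 27.8 in Ts1Cje. Replicates 5 and 6 of Ts1Cje were higher than any 2N sample, and the other 4 were within the 2N range. The difference was 0.24 (SE 0.24, 95% interval -0.27 to 0.74, limma adjusted p = 0.99). By replicates it was not uniform, at -0.21 between replicates 1 and 2 of each genotype and 0.46 between replicates 3 to 6. This split of the replicates was taken from an earlier analysis of the same arrays, which is not shown here. The labels give no batch that would mark it.

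Flt1 encodes a VEGF receptor that binds the ligand tightly and signals weakly, and a soluble form of it traps VEGF. It had 3 probe sets, all dim and all lower on average in Ts1Cje, though none passed. The probe set 106503_at on array B was at 5.84, 10.8 and 15.8 in 2N and at 2.23, 4.57 and 10.7 in Ts1Cje. All 6 Ts1Cje samples lay below the 2N median and 4 of 6 below every 2N sample, while the other 2, replicates 1 and 4, lay within the 2N range. The difference was -1.07 (SE 0.38, 95% interval -1.88 to -0.27, limma adjusted p = 0.996). It was -1.19 between replicates 1 and 2 and -1.02 between replicates 3 to 6. With 64 added to each intensity before log2, which shrinks differences of dim probe sets, it was -0.0998 (limma adjusted p = 0.999), and with 16 added it was -0.30. The floor of the scale, 1.13 on array B, was below every value of this probe set.

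The array A probe sets of Flt1 gave smaller differences. The probe set 98452_at was at 5.84, 16.1 and 20.6 in 2N and at 6.76, 14.7 and 17.3 in Ts1Cje, a difference of -0.086 (SE 0.31, 95% interval -0.74 to 0.57). One sample of each genotype was low, 2N replicate 6 and Ts1Cje replicate 4, and the other 10 samples lay between 12.8 and 20.6. Without Ts1Cje replicate 4 the difference was 0.10 and without 2N replicate 2 it was 0.028. The probe set 98453_at was at 3.08, 5.24 and 17.8 in 2N and at 1.91, 4.65 and 9.46 in Ts1Cje. Replicates 1 and 3 of 2N, at 17.8 and 14.1, stood above the other 10 samples, which reached at most 9.46. The difference was -0.58 (SE 0.51, 95% interval -1.66 to 0.50, limma adjusted p = 0.99). It was -1.41 between replicates 1 and 2 and -0.17 between replicates 3 to 6, and ran from -0.81 to -0.30 when each sample in turn was left out.

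Tek, the angiopoietin receptor gene, was at 7.63, 10.5 and 14.3 in 2N and at 6.69, 10.7 and 14.2 in Ts1Cje. The genotypes were spread over the same range, and the difference was -0.038 (SE 0.26, 95% interval -0.59 to 0.51, limma adjusted p = 0.998). The sign was positive with array weights (0.046), among replicates 3 to 6 alone (0.070), and without 2N replicate 4, 2N replicate 6 or Ts1Cje replicate 1 (0.023 to 0.089).

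Tie1, the gene of the related receptor that forms complexes with the Tek product, gave opposite signs in its 2 probe sets. The probe set 99936_at was at 19.0, 27.6 and 32.4 in 2N and at 13.8, 21.5 and 26.9 in Ts1Cje. All 6 Ts1Cje samples lay below the 2N median, and 2 of them below every 2N sample. The difference was -0.37 (SE 0.19, 95% interval -0.77 to 0.026, limma adjusted p = 0.99). The probe set 161184_f_at was at 10.1, 13.1 and 20.1 in 2N and at 12.98, 15.8 and 19.2 in Ts1Cje, a difference of 0.19 (SE 0.21, 95% interval -0.25 to 0.64). In the manufacturer's naming the suffix _f marks a set whose probes match a family of sequences, and the annotation gave no accession for this one.

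Eng encodes endoglin, an endothelial co-receptor for ligands of the TGF-beta and BMP family. On array A it was at 69.3, 80.7 and 129 in 2N and at 78.7, 105 and 134 in Ts1Cje. Apart from 2N replicate 1, which was as bright as the brightest Ts1Cje samples, the 2N samples lay between 69.3 and 87.3, and 4 of the 6 Ts1Cje samples were above that range. The difference was 0.27 (SE 0.16, 95% interval -0.065 to 0.60, limma adjusted p = 0.99). Without 2N replicate 1 it was 0.38 (limma adjusted p = 0.998). The Eng probe set on array B was dim, at 2.79, 6.45 and 9.12 in 2N and at 3.87, 6.65 and 8.85 in Ts1Cje, with a difference of 0.23 (SE 0.37, 95% interval -0.56 to 1.01).

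Pecam1, which encodes an adhesion molecule of endothelial junctions that platelets and some leukocytes carry too, was the most variable member between samples. It was at 5.17, 19.4 and 31.0 in 2N and at 7.49, 22.0 and 35.6 in Ts1Cje. The low samples were 2N replicates 1 and 6 and Ts1Cje replicate 4. The SD of its log2 values was 1.12 in 2N and 0.77 in Ts1Cje, against 0.15 and 0.14 for Cldn5. The difference was 0.42 (SE 0.45, 95% interval -0.53 to 1.37, limma adjusted p = 0.99). It was 1.16 between replicates 1 and 2 and 0.052 between replicates 3 to 6.

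Vwf encodes von Willebrand factor, which endothelial cells store and release for clotting. Its brighter probe set, 103499_at, was at 31.4, 35.5 and 47.5 in 2N and at 37.5, 43.2 and 55.0 in Ts1Cje. All 6 Ts1Cje samples lay above the 2N median and 1 above every 2N sample, and 2N replicates 2 and 3 lay among the Ts1Cje values. The difference was 0.21 (SE 0.14, 95% interval -0.082 to 0.50, limma adjusted p = 0.99). The other Vwf probe set, 97052_at, was too dim to be tested, with a mean of 3.38 against a minimum of 5.11. It was at 2.37, 3.07 and 4.18 in 2N and at 3.14, 3.49 and 4.64 in Ts1Cje.

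**Figure D2:**
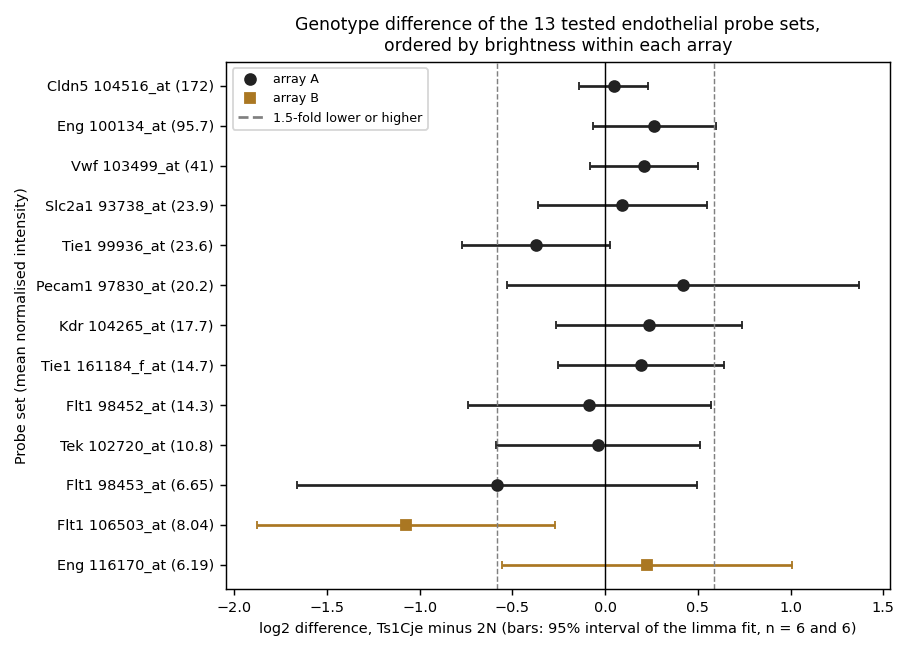
Log2 difference of Ts1Cje minus 2N (horizontal axis) with the 95% interval of the limma fit for the 13 tested endothelial probe sets, listed with their mean normalised intensity. The interval of Cldn5 is the narrowest, from -0.14 to 0.23, and that of the Flt1 probe set on array B, from -1.88 to -0.27, is the one that leaves out 0.

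The intervals set how much can be read from the absence of calls. A change of 1.5-fold in both directions lay outside the interval for 3 of 13 tested probe sets, those of Cldn5, Vwf and Slc2a1. A change of 2-fold in both directions lay outside it for 9. For Pecam1, for the Eng probe set of array B and for 2 of the Flt1 probe sets a 2-fold difference in 1 direction was within the interval and so was not excluded.

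Agreement between probe sets of one gene was examined for the 6 pairs that Flt1, Tie1, Eng and Vwf allow. It was taken over the 8 samples of both genotypes numbered 3 to 6, leaving out replicates 1 and 2 by the split above. The correlations and their p therefore do not cover replicates 1 and 2. Genotype means were not removed, so a genotype difference shared by both probe sets of a pair adds to r. Samples were matched across arrays by their number. The labels do not say that a number is the same RNA on both arrays. Over the 8 samples the Vwf pair moved together (Pearson r = 0.87, exact permutation p = 0.0028, 0.017 after Benjamini-Hochberg adjustment over the 6 pairs). Its Spearman rho was 0.83 (exact permutation p = 0.015, adjusted 0.092), and r was 0.62 without the 2 samples farthest from the median. The bright and the dim Vwf probe set gave near-equal differences between genotypes, 0.21 and 0.24, the latter without a filter on dim probe sets. Between replicates 1 and 2, however, these were 0.19 and -0.16, and between replicates 3 to 6 they were 0.22 and 0.44. In Ts1Cje replicate 2, left out of the correlation, 103499_at was at its highest (55.0) and 97052_at at its lowest Ts1Cje value (3.14). The Eng probe sets of arrays A and B did not vary together (Pearson r = 0.10, exact permutation p = 0.80, adjusted 0.98, and rho = -0.012, exact permutation p = 0.99). For the 3 Flt1 pairs r was 0.27, -0.00911 and -0.016 (exact permutation p of at least 0.595, adjusted 0.98), and rho was 0.19, 0.071 and -0.26 (exact permutation p of at least 0.536, adjusted 0.99). The Tie1 pair had r = -0.45 (exact permutation p = 0.27, adjusted 0.80) and rho = -0.62 (exact permutation p = 0.11, adjusted 0.34). Without the 2 farthest samples r was -0.51 for Eng, -0.73 for Tie1, and -0.40, 0.24 and -0.51 for Flt1.

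Whether probe sets of one gene differed in their genotype difference was tested with a two-sided exact permutation test over the 924 ways of assigning the genotypes. The Tie1 probe sets differed by -0.57 (exact permutation p = 0.050, 0.30 adjusted over the 6 pairs). The Flt1 probe sets 98452_at and 106503_at differed by 0.99 (exact permutation p = 0.0996, adjusted 0.30), and the other Flt1 pairs by 0.50 and 0.49 (exact permutation p = 0.43 and 0.46, each adjusted to 0.69). The Eng and Vwf pairs differed by 0.040 and -0.033 (exact permutation p = 0.93 and 0.83). No pair passed after adjustment.

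**Figure D3:**
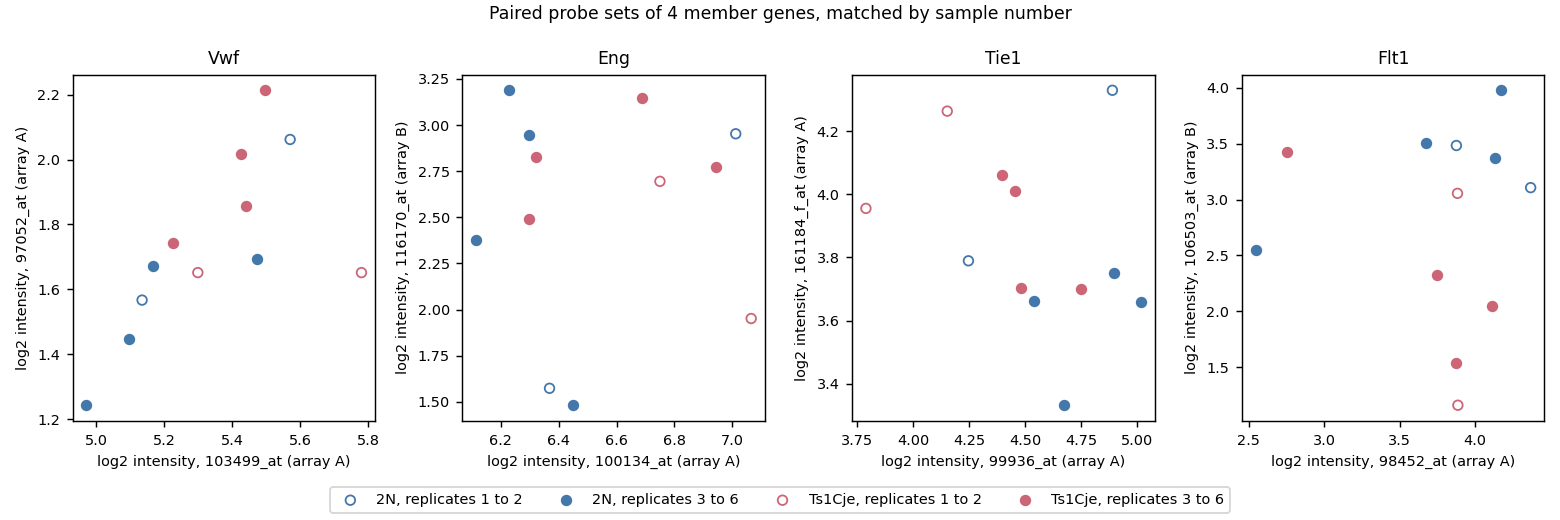
Log2 intensity of a pair of probe sets for each of Vwf, Eng, Tie1 and Flt1 in the 12 samples, matched by number (blue, 2N; red, Ts1Cje; open points, replicates 1 and 2; filled points, replicates 3 to 6). The filled points of Vwf rise together (r = 0.87), and those of Eng (r = 0.10) and Flt1 (r = -0.00911) do not.

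Genes of 10 vascular pathways that act around the members were counted in the same fit, from lists that hold 173 genes. Among 158 probe sets tested from array A and 67 from array B, 0 passed in either direction. At an unadjusted p under 0.05 there were 4 higher and 4 lower on array A, 5.06% of those tested, and 0 higher and 2 lower on array B, 2.99%. The background was 3.63% and 4.24%. The median log2 difference was 0.0028 and -0.021.

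Around the VEGF receptors Kdr and Flt1, 14 probe sets of 11 ligand, co-receptor and hypoxia genes on array A had a median of -0.036, with Hif1a, the hypoxia factor gene, at -0.021 and the VEGF co-receptor gene Nrp1 at 0.022. The prolyl hydroxylase gene Egln1, which marks hypoxia factors for removal, was at -0.085. Around Tek and Tie1, 7 probe sets of 4 genes had a median of -0.15. Angptl4, an angiopoietin-like gene, was at -0.28 in its brightest probe set and at -0.15, 0.30 and 0.55 in its others. The angiopoietin genes Angpt1 and Angpt2, both dim, were at -0.47 and 0.45. Dok2, an adaptor gene, was at -0.25 (SE 0.48) on array A and at -0.082 (SE 0.20) in a brighter probe set on array B. The endothelial phosphatase gene Ptprb, which acts on the Tek product, was at 0.45 on array B (SE 0.23, limma adjusted p = 0.996).

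Around Eng, 21 probe sets of 17 TGF-beta and BMP signalling genes on array A had a median of 0.062. The BMP target genes Id2 and Id3 were at 0.00161 and 0.19. The signal transducer gene Smad1 was at 0.097 and, in its other probe set there, at -0.088. Of the junction genes that accompany Cldn5, 9 of 11 probe sets on array A were above 0, with a median of 0.17. The catenin gene Ctnnb1 was at 0.053, Tjp1, the scaffold gene of tight junctions, at 0.067, and Ctnnd1, which stabilises cadherins, at -0.21 (SE 0.082, limma adjusted p = 0.99). Barrier transport genes, the company of Slc2a1, had a median of 0.016 over 12 probe sets on array A. The amino acid transporter genes Slc7a5 and Slc3a2, whose products form 1 carrier, were at 0.057 and -0.025, and the lipoprotein receptor gene Lrp1 at 0.081.

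Other endothelial surface and secreted genes had a median of 0.044 over 27 probe sets on array A, with the matrix protein gene Sparc at -0.14, the receptor partner gene Ramp2 at 0.044 and the adhesion gene Vcam1 at 0.17. Endothelial transcription factors had a median of -0.22 over 22 probe sets on array A and -0.081 over 11 on array B. On array A 7 of the 22 were above 0 and 15 below, where 48.9% of all tested probe sets were above 0. Among the dimmer ones there, Sox17 was at -0.45 and -0.35, Sox18 at -0.22 and -0.24, and Sox7 at -0.26, and none passed. Tcf4, Mef2c and Nr2f2, which neurons also use, were on array A at 0.057, 0.0028 and 0.12 in their brightest probe sets. The other Mef2c probe sets of array A were at -0.14, -0.066 and -0.17. On array B Tcf4 was at -0.10 in a brighter probe set and at 0.044 in a dimmer one. Notch genes had a median of -0.026 over 11 probe sets on array A, with the receptor gene Notch1 at 0.0028, the ligand gene Jag2 at -0.026 and the nuclear effector gene Rbpj at 0.00486. Genes of the Wnt signal that forms the barrier had a median of -0.064 over 11, with the Wnt target genes Apcdd1 and Lef1 at 0.076 and -0.10 and the Wnt co-receptor gene Lrp6 at -0.054. Lef1 was at -0.17 in a dimmer array A probe set and at 0.089 on array B. Basement membrane genes had a median of 0.048 over 22, with the proteoglycan gene Agrn at 0.028 and the integrin gene Itgb1 at 0.051. Col4a2, a collagen IV chain of the vessel wall, had an intensity of 261 ± 33.1 in the 2N samples and 312 ± 33.2 in the Ts1Cje samples (SD, n = 6). Its difference was 0.26 (SE 0.094, limma adjusted p = 0.99).

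The genes of the excess segment with known roles in vessels were the one list with a call. Of 6 listed, 4 were on array A and 3 were tested there. The kinase gene Dyrk1a passed on array A at 0.57 (SE 0.097, limma adjusted p = 0.020), and its other probe set, at 0.27, did not. The calcineurin inhibitor gene Rcan1, whose product VEGF signalling induces in endothelium, was at 0.42 (SE 0.13, adjusted p = 0.99). The ETS factor gene Ets2 was at 0.51 on array A (SE 0.18, adjusted p = 0.99) and at 1.25 on array B (SE 0.46, adjusted p = 0.996). No probe set on either array carried the name Erg, and the 2 of Runx1 were too dim to be tested. The members with GGAA or TTCC in their promoter, shown above for Tie1 and Flt1, had differences of both signs, from -1.07 to 0.27. Cldn5 and Slc2a1, without a match, were at 0.047 and 0.092. A link between ETS factors and the member values was not tested.

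**Figure D4:**
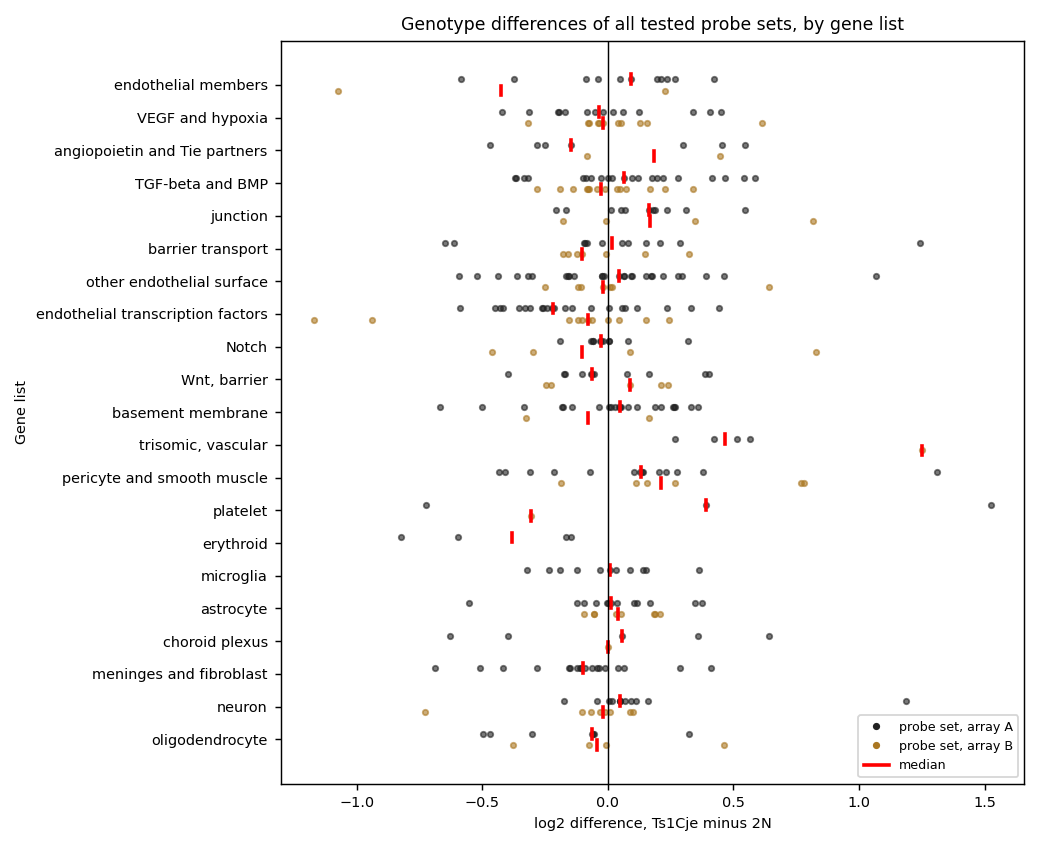
Log2 difference of Ts1Cje minus 2N (horizontal axis) for every tested probe set of the endothelial members, the vascular pathway lists, the trisomic genes and markers of other cell types, with the median of each list and array in red. The list of trisomic genes has a median of 0.47 on array A, and the endothelial members scatter on both sides of 0 with a median of 0.092.

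Markers of other cell types, in 9 lists from vessel wall and blood to neurons and glia, were given the same fit. Of 87 probe sets from array A and 28 from array B, 0 passed. At an unadjusted limma p under 0.05 there were 4 higher and 1 lower on array A, 5.75% of those tested, where 3.63% of all tested reached it. On array B there were 1 higher and 0 lower, 3.57%, where 4.24% of all tested reached it. Pericyte and smooth muscle markers were above 0 in 9 of 14 probe sets on array A (median 0.13) and 5 of 6 on array B (median 0.21). Their summed intensity on array A ran from 207 to 272 in 2N and from 227 to 299 in Ts1Cje. On array A Notch3, Rgs5 and the myosin kinase gene Mylk were at 0.27, 0.13 and -0.072. Platelet markers, of interest because platelets carry Pecam1 and Vwf, had 3 tested probe sets on array A, with a summed intensity of 50.9 to 73.7 in 2N and 57.4 to 108 in Ts1Cje. The platelet chemokine gene Pf4 was at 1.52 (limma adjusted p = 0.89), the receptor chain gene Gp1bb at 0.39 (adjusted p = 0.99), and Gp9 at -0.73. Pf4 was dim, at a mean intensity of 5.41. The part of platelets in the Vwf and Pecam1 values was not tested.

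Erythroid markers, of interest because red cells of some species and ages carry the Slc2a1 product, were below 0 in 4 of 4 probe sets (median -0.38), with a summed intensity of 937 to 1513 in 2N and 1015 to 1180 in Ts1Cje. Hba-a1, Hbb-b2 and Alas2 were at -0.15, -0.17 and -0.60. Microglia markers had a median of 0.00759 over 11 probe sets, with C1qc at -0.32, C1qa at 0.031 and Ctss at 0.00759, and astrocyte markers 0.012 over 13, with Fabp7 at 0.00222, Apoe at -0.00286 and Aldoc at 0.17. Choroid plexus markers had a median of 0.058 over 5 probe sets, with Ttr at 0.058, Folr1 at 0.36 and Sostdc1 at -4.72e-05 on array B. Meningeal and fibroblast markers had a median of -0.098 over 18, of which 14 were below 0. The prostaglandin synthase gene Ptgds was at -0.065 in its brightest probe set and at -0.42 (limma adjusted p = 0.99) and -0.12 in its others, with Igfbp2 at 0.042 and Pdgfra at -0.010. Neuronal markers had a median of 0.049 over 12, with Tubb3 at 0.069, Stmn2 at 0.046 and Gap43 at 0.00524. The other Tubb3 probe set was at -0.042. Oligodendrocyte markers had a median of -0.062 over 7, with Sox10 at -0.057, Mbp at -0.062 and Mag at -0.061. The other array A probe sets of these genes were at -0.30 for Sox10, 0.32 for Mbp and -0.50 for Mag. On array B the list's median was -0.042 over 4 probe sets. A brighter Sox10 probe set there had the opposite sign, at 0.46 (SE 0.13, limma adjusted p = 0.92).

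For each member, the 3 genes with the most similar pattern over the 12 arrays of design A were taken. Likeness was Pearson's r of log2 values after the means of replicates 1 and 2 and of replicates 3 to 6 were removed, among 4238 or 4239 brighter probe sets that name 1 gene. It is given as a description. The highest of so many correlations over 12 arrays can be large by chance, and whether these exceed that was not tested. The genotype difference was not removed, so it also enters r. Candidates had to lie above the median intensity of the tested probe sets, so of the members only Cldn5, Eng and Vwf could appear for another member, and dim endothelial genes could not. For Cldn5 they were Clptm1, Cpe and Fyttd1 (r = 0.88, 0.84 and 0.83), and for Eng they were Stim1, Dnm1 and Dlg4 (0.90, 0.89 and 0.87), the last pair genes of neuronal synapses. For Vwf they were Ubr7, the collagen IV gene Col4a2 and Sprr2e (0.91, 0.86 and 0.84). For Pecam1 they were Clic4, Stag2 and Slc25a5 (0.86, 0.85 and 0.84). For Kdr they were Pnpla2, Cnbp and Actn1 (0.92, 0.87 and 0.86), and for Flt1 they were Dnajc13, B4galt1 and Cope (0.88, 0.81 and 0.79). For Tek they were Kcnh2, Cox7a2l and Cenpb (0.85, 0.85 and 0.83), for Tie1 Ndufaf1, Laptm4b and Vmp1 (0.87, 0.85 and 0.82) and for Slc2a1 Tead2, Bag6 and Kctd17 (0.86, 0.80 and 0.80).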

How the data were processed

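Per the labels, total RNA from brain was measured on MGU74A and MGU74B arrays. The deposited tables hold intensities on a linear scale; the steps the authors took to obtain them were not stated in the material used. Between arrays, 2% trimmed means spanned a ratio of 2.10 (array A) and 1.86 (array B), so each table was quantile normalised after 66 control probe sets were left out. Values below the 10th percentile (1.47 and 1.13) were set to it, log2 was taken, probe sets whose mean fell under the 25th percentile were left out, and the rest were tested with limma 3.58.1 (R 4.3.3) with a mean-variance trend, without covariates. This left 9316 and 9308. Tables were tested apart. Probe sets with several symbols were given no name. The pipeline was tested on simulated data. The members and gene lists were chosen with earlier results of these data known. Every member probe set is named, and of each other list any that passed and the 3 brightest genes, each by its brightest array A probe set, with array B used only for genes not tested on array A. Angpt1, Angpt2, Sox7, Sox17, Sox18 and further probe sets of some of these genes were added after their values were seen. Genes most alike in pattern are the 3 with the highest correlation. Alternatives changed the normalisation, filter, floor, offset, trend, array weights and replicate terms, or left out 1 sample. The tests between probe sets of 1 gene were added after the member values were seen. The number of arrays limits the precision.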

Additional observations from a re-analysis of the deposited data

Results flagged for a closer look

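Among 26 groups of 6 samples (13 tested endothelial probe sets in each genotype), 2 held a sample whose gap to the nearest other sample was a large part of the whole range on the log2 scale, past Dixon's 95% critical value. Chance gives about 1 in 20 such groups. For the Flt1 probe set 98452_at on array A, Ts1Cje replicate 4 was the lowest at 6.76, and the next sample was at 13.4. For the Eng probe set 100134_at on array A, 2N replicate 1 was the highest at 129, and the next was at 87.3.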

How the results depend on the processing

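No member probe set passed under any of the 26 alternatives per array, and the smallest limma adjusted p was 0.856. Of 332 alternative values, 319 kept their sign and 13 turned it. Outside single left-out samples, the sign turned for Cldn5 without normalisation between arrays (-0.021), Kdr and Slc2a1 with replicates 1 and 2 alone (-0.21 and -0.34), and Tek with array weights and with replicates 3 to 6 alone (0.046 and 0.070). With 1 sample left out, the difference ran from -0.00809 to 0.088 for Cldn5, from -0.34 to 0.10 for Flt1 98452_at, from -0.13 to 0.089 for Tek and from -0.033 to 0.21 for Slc2a1. The number of array A member probe sets with an unadjusted p under 0.05 was 0, where 3.63% of all tested reached that level. It was 1 with a replicate block (Eng, limma adjusted p = 0.90, where 5.16% of all probe sets reached that level). With replicates 1 and 2 against 3 to 6 as a term it was 1 (Tie1 99936_at, where 4.67% did). With a sample left out it was 0 to 2. It was 1 without 2N replicate 1, 2N replicate 2 or Ts1Cje replicate 4, where 3.84%, 4.59% and 4.48% of all tested reached that level. It was 2 without Ts1Cje replicate 5, where 3.9% did. On array B the number was 1, where 4.24% of all tested reached that level. It was 0 with replicates 1 and 2 alone, and 0 with the 50th percentile filter, where neither probe set was tested. It stayed 1 in every fit that left out a sample. Same-numbered samples of both genotypes correlated at 0.017 to 0.077 on array A and 0.013 to 0.11 on array B in their deviations from the genotype mean, and 3 and 2 of 6 2N samples correlated best with their own number, so the labels' numbers were not taken as pairs. The block ended or made no call at the adjusted threshold. Dim probe sets limit what could be seen. Only 3 of the 11 tested member probe sets of array A, those of Cldn5, Eng and Vwf, lay above the median intensity of the tested probe sets, and neither of array B did.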

Other observations

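Beside Ctnnd1, Col4a2 and the trisomic genes, the vascular genes outside the members with an unadjusted limma p under 0.05 are named here. They were chosen after their values were seen, and none passed (adjusted p of at least 0.84). In the vascular pathway lists 5.06% of tested probe sets on array A and 2.99% on array B reached that level, where 3.63% and 4.24% of all tested did. Ager, which encodes a receptor that moves amyloid peptide into the brain, had an intensity of 14.9 ± 9.005 in the 2N samples and 31.8 ± 10.8 in the Ts1Cje samples (SD, n = 6). Its difference was 1.24 (SE 0.35, limma adjusted p = 0.84). The junction adhesion gene Jam3 was at 0.55 and the efflux transporter gene Abcg2 at -0.61. Igfbp7, a vessel wall gene, was at 1.07 and the smooth muscle actin gene Acta2 at 1.31, both dim. Plvap, a marker of leaky endothelium, was at -0.25 on array B and at 0.017 in its other probe set there. The ETS factor gene Ets1 was at -1.17 in a dim probe set on array B (mean intensity 5.49) and at -0.33 on array A. The Wnt target gene Axin2 was at -0.40, and a further Itgb1 probe set was at -0.33.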
